A study of Homo sapiens with 40 samples.

Results

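The transcriptome of wild-type (WT) HEK293A cells was compared between cells that had received topotecan (Tpc) and cells that had received only its solvent. The members of the comparison were the 4 libraries of WT cells with 100 nM Tpc and 0.1% DMSO and the 4 libraries of WT cells with 0.1% DMSO, chosen by their labels, which is 8 of the 40 libraries of the series. Exposure lasted 5 to 5.5 h in both groups, so the stated treatment of the groups differed only by Tpc. The rest of the series were untreated cells, cells with the TDP1 inhibitor OL9-119 and cells with both agents, plus the same 5 treatments of a PARP1-knockout (PARP1-KO) clone, which received 50 nM Tpc. HEK293A is an established adherent line from human embryonic kidney that was transformed with adenovirus DNA. The series has 1 WT line and 1 PARP1-KO clone, and the labels call the 4 replicates of a condition biological while the study's methods call them technical in 1 place. The p-values therefore measure the spread between these libraries only.

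Topotecan is a camptothecin derivative that holds topoisomerase 1 (TOP1) on the DNA strand it has nicked. A trapped TOP1 is an obstacle to RNA polymerase, and a replication fork that meets it can end in a double-strand break. DNA breaks are known to activate checkpoint kinases, which hold cells before mitosis, and can activate NF-kappa B through ATM and the kinase IKK. NF-kappa B is a family of transcription factors held in the cytoplasm by IkappaB proteins until a signal releases them, and its targets include chemokines, adhesion molecules and its own inhibitors.

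The libraries were compared with each other before any gene was tested. Total counts ranged from 6300822 to 14292607 with a median of 9282627, and no pair of libraries agreed within sampling noise. DMSO replicate 3 stood apart from the other 7 libraries. On the first principal component, which held 44.1% of the variance of the 8 libraries, it lay at 96.7 while the others lay between -20.3 and -0.6. At an equal depth of 6300822 counts it had 15849 detected genes against 17066 to 21611 in the others, and ribosomal protein genes took 10.4% of its normalised counts against 5.58 to 7.12%. Results that rest on this library are given below with and without it. The second component, with 19.5% of the variance, had DMSO replicate 2 at 52.0 and Tpc replicate 2 at -42.8, which share a library-name prefix. Identity markers were checked next. All 10 HEK293-type markers were above 1 CPM (counts-per-million after TMM normalization, which scales libraries to a common composition). Their summed level was 2000 to 2700 CPM with DMSO and 1850 to 2080 CPM with Tpc. Of 7 immune cell markers, 6 were under 1 CPM and PTPRC and CD68 were at 0 in all 8 libraries, with a summed level of 0.527 to 5.63 CPM with DMSO and 2.22 to 3.35 CPM with Tpc. The 4 endothelial markers summed to 4.67 to 6.25 and 2.17 to 8.24 CPM, and the 5 fibroblast markers to 22.5 to 49.4 and 17.9 to 30.7 CPM, with DMSO and Tpc, respectively.

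PARP1, the gene knocked out in the other line, had 818 ± 54.2 CPM with DMSO and 792 ± 20.8 CPM with Tpc in WT cells (SD, n = 4), with overlapping groups. Its level in the PARP1-KO libraries with DMSO was 39.4 ± 6.73 CPM (SD, n = 4). The direct target of the drug, TOP1, had 332, 344, 396 and 359 CPM in DMSO replicates 1 to 4 and 293, 306, 317 and 321 CPM in Tpc replicates 1 to 4. The TOP1 groups did not overlap, but the log2 fold change (log2FC) of -0.21 ± 0.103 (SE) did not pass the threshold (edgeR adjusted p = 0.298). TDP1, which removes trapped TOP1 from DNA ends, had a log2FC of -0.60 ± 0.255 with overlapping groups (edgeR adjusted p = 0.226).

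A gene was called a differentially expressed gene (DEG) when its edgeR quasi-likelihood p-value, adjusted after Benjamini and Hochberg over 28922 tested genes, was below 0.01. Tpc gave 285 DEGs, which is 0.985% of the genes tested. Of these 182 were upregulated (0.629%) and the others were downregulated (0.356%). In 270 of the 285 DEGs the CPM values of the 4 Tpc libraries did not overlap those of the 4 DMSO libraries, and over all tested genes 3.19% were higher and 1.85% lower without overlap. The median log2FC was 0.91 for the upregulated and -0.86 for the downregulated DEGs. An absolute log2FC of at least 2 was found in 23 upregulated and 3 downregulated DEGs, and 3 upregulated DEGs and 1 downregulated DEG had 0 counts in all libraries of a group. Protein-coding genes made up 275 of the DEGs and long noncoding RNAs 7. The number of calls depended on the libraries that shared the estimate of spread. A fit of only the 8 compared libraries called 56 of these DEGs, a fit of the 20 WT libraries called 73 upregulated and 48 downregulated DEGs, and a fit without DMSO replicate 3 called 192 of them.

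**Figure D1:**
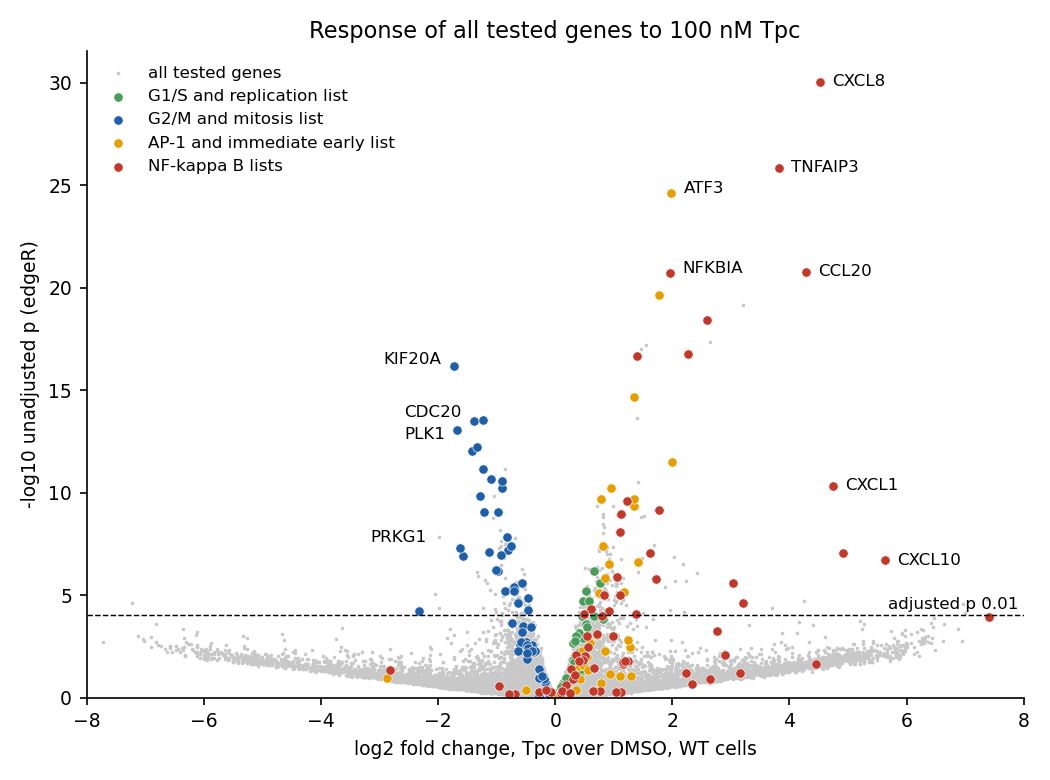
Each point is 1 of the 28922 tested genes, with its log2 fold change between Tpc and DMSO in WT cells on the x axis and the negative log10 of its unadjusted p-value on the y axis, and the dashed line marks the adjusted p of 0.01. Members of the NF-kappa B lists and the AP-1 list lie on the right, with CXCL8 at the top at a log2FC of 4.52, and members of the G2/M list lie on the left.

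The promoters of the genes that led the main groups are shown first, so that the letters can be read beside the values that follow. They were taken from RefSeq for GRCh38.p14 and cover 250 bases before to 50 bases after the start, 5′ to 3′, all on the + strand. In the promoters of CXCL8 (chr4:73740319-73740618), TNFAIP3 (chr6:137867009-137867308) and CCL20 (chr2:227813592-227813891), which were the NF-kappa B list members of smallest adjusted p, capitals mark matches on either strand to the 10-base kappa B consensus and to the AP-1 motif TGANTCA.
CXCL8: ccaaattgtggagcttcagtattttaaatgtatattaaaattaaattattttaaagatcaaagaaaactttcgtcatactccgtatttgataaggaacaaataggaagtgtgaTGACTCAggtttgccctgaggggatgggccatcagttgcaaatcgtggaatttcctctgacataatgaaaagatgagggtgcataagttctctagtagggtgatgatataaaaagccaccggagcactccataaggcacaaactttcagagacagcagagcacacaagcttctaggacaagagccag
TNFAIP3: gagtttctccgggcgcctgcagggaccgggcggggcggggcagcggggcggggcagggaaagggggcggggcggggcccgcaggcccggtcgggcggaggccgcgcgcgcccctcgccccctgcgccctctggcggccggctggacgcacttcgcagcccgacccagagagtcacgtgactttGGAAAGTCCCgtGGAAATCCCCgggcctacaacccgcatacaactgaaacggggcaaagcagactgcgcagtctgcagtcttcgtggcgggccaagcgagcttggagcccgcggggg
CCL20: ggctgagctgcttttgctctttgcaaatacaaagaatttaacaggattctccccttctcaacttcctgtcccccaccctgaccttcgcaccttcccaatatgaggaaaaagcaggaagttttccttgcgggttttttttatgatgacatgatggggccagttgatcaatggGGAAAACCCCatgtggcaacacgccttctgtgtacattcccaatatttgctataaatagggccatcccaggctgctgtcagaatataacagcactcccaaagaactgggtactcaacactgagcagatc

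In the promoters of KIF20A (chr5:138178862-138179161), CCNB1 (chr5:69166900-69167199) and CDC20 (chr1:43358731-43359030), the G2/M list members of smallest adjusted p, capitals mark the CCAAT box, which the factor NF-Y binds, and the CHR (cell cycle genes homology region, TTTGAA or TTCGAA), which the DREAM and MuvB complexes bind, on either strand.
KIF20A: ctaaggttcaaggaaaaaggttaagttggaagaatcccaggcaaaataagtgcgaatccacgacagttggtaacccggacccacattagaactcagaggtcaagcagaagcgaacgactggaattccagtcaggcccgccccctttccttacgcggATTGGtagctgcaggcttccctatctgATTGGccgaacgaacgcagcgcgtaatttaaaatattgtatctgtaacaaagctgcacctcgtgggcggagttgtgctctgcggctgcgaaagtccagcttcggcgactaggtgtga
CCNB1: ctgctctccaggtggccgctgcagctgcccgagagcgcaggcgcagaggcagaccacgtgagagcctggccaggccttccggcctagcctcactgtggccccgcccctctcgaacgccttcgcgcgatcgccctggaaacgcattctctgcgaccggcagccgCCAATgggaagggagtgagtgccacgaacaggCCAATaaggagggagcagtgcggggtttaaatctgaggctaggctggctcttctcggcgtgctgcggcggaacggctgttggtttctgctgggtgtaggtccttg
CDC20: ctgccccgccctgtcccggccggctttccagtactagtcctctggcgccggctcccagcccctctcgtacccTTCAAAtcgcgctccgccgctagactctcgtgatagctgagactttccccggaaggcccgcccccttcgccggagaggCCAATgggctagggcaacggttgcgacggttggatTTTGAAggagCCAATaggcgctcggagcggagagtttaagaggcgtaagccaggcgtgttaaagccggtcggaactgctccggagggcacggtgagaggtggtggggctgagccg

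TNFAIP3 held 2 matches to the kappa B consensus and CCL20 held 1, while CXCL8 held 1 AP-1 match and no stretch with the letters of the consensus searched in this window. A site that departs from the letters searched would not be marked, so this does not show that CXCL8 lacks a kappa B site. Each of the 3 G2/M promoters held 2 CCAAT boxes, and CDC20 also held 2 CHR matches. No marked stretches overlapped each other. Over all 35116 promoters of the table, 11.3% held the kappa B consensus, 7.71% the AP-1 motif, 34.6% a CCAAT box and 16.4% a CHR. In the 16370 promoters of tested genes with at least 1 CPM, the shares were 13.5%, 5.32%, 34.5% and 11.8%, in the same order. Among 31 promoters of the upregulated members of the NF-kappa B lists, with 23 of 25 genes matched by symbol, 51.6% held the kappa B consensus. Among 211 promoters of all upregulated DEGs, the consensus was in 18.0% and the AP-1 motif in 5.69%. Among 106 promoters of the downregulated DEGs, a CCAAT box was in 63.2% and a CHR in 35.8%. The 58 promoters of all G2/M list members, called or not, held a CCAAT box in 79.3% and a CHR in 65.5%. These shares are descriptions, since the lists were drawn up from genes known to be controlled in these ways.

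Genes of the NF-kappa B response rose together. Over the 3 NF-kappa B lists, 25 of 66 tested members were upregulated (37.9%, against 0.629% of all tested genes) and 0 were downregulated. Among genes of at least 1 CPM, 1.18% were upregulated. The lists were chosen with earlier results of these data known, so this excess is a description and not an independent test. Among cytokines and chemokines, 6 of 21 tested members rose, namely CXCL10, CXCL2, CXCL1, CXCL8, CCL20 and CXCL3, and the median log2FC of the list was 1.16 against 0.0 for all tested genes. CXCL8 encodes the neutrophil attractant interleukin-8 and had the smallest adjusted p of all genes. Its level was 15.3, 23.3, 10.9 and 11.4 CPM in DMSO replicates 1 to 4 and 294, 440, 348 and 335 CPM in Tpc replicates 1 to 4. The lowest Tpc library was thus above the highest DMSO library, and the change was 23.0-fold (log2FC 4.52 ± 0.197, edgeR adjusted p = 2.55e-26). CCL20, the ligand of CCR6, was at 6.04, 1.48, 4.79 and 2.19 CPM with DMSO and 64.8, 102.1, 66.2 and 58.7 CPM with Tpc (19.4-fold, log2FC 4.28 ± 0.286, edgeR adjusted p = 1.08e-17). CXCL1, another ligand of CXCR2, was close to the detection limit with DMSO, at 0.426, 0.0, 1.32 and 0.313 CPM, and reached 10.1, 21.8, 11.3 and 11.9 CPM with Tpc (log2FC 4.74 ± 0.587, edgeR adjusted p = 4.8e-08). DMSO replicate 3 had the highest CXCL1 level of its group, and the log2FC was 5.67 without it (edgeR adjusted p = 5.23e-09). CXCL1, CXCL2 and CXCL3 are close paralogs, so reads may have been split between them in the authors' counting. CXCL10, an attractant of T cells through CXCR3, had 0.222 ± 0.377 CPM with DMSO and 9.32 ± 1.24 CPM with Tpc (SD, n = 4). The other 15 cytokine genes did not pass the test, and 8 of the 21 members were under 1 CPM.

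The regulators of the pathway rose as well. Of 25 subunits, inhibitors and feedback genes, 10 were upregulated with a list median of 0.66, and the other 15 were not called although all 25 had a positive log2FC. The largest change was in TNFAIP3, which encodes the ubiquitin-editing inhibitor A20. It had 13, 12.4, 4.07 and 15.2 CPM with DMSO and 166, 128.3, 159 and 181 CPM with Tpc, so that no libraries overlapped (14.2-fold, log2FC 3.82 ± 0.201, edgeR adjusted p = 2.07e-22). NFKBIA, which encodes IkappaB-alpha, was at 50.4, 34.8, 46.5 and 42.4 CPM with DMSO and 189, 176, 158 and 155 CPM with Tpc (3.89-fold, log2FC 1.96 ± 0.132, edgeR adjusted p = 1.08e-17). RELB, a subunit of the noncanonical pathway, was at 11.9, 9.07, 12.2 and 8.14 CPM with DMSO and 54.4, 48.3, 49.0 and 49.0 CPM with Tpc (log2FC 2.27 ± 0.188, edgeR adjusted p = 4.28e-14). The remaining called members were BIRC3 (log2FC 1.61), NFKBIZ (1.38), NFKB2 (1.23), NFKB1 (1.11), MAP3K14 (0.91), BIRC2 (0.61) and RELA (0.50), so the transcripts of 4 of the Rel subunit genes were among the DEGs. Without DMSO replicate 3, 7 of the 25 passed the test. The count was 5 when only the 8 compared libraries were fitted and 6 without Tpc replicate 1.

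Of 20 surface and effector genes, 9 were upregulated with a list median of 1.11, and the median was 1.08 when members with a group at 0 counts were set to the bound of 3 counts over that group or left out. CD69, an early activation antigen of lymphocytes, had 0.426, 0.738, 4.19 and 0.939 CPM with DMSO and 10.3, 15.4, 13.5 and 12 CPM with Tpc. DMSO replicate 3 was the highest of its group for CD69, and the log2FC was 3.04 ± 0.583 with this library and 4.23 without it (edgeR adjusted p = 0.000552 and 5.81e-06). TNFRSF9, the costimulatory receptor 4-1BB, rose 6.01-fold (edgeR adjusted p = 1.43e-15), from 9.38, 14, 9.47 and 11.7 CPM to 56.1, 80.4, 66.1 and 64.9 CPM. SDC4, a heparan sulfate proteoglycan, rose 2.65-fold and PLAU, the urokinase plasminogen activator, rose 3.43-fold, both without overlap between the groups. ICAM1, CD83, EFNA1, TNFAIP2 and SLC2A6 were the other called members, with a log2FC of 1.72, 1.12, 1.10, 1.06 and 0.84. With only the 8 compared libraries 4 of the 20 were called. The summed level of immune cell markers was no higher than 3.35 CPM in any Tpc library, as given above, and PTPRC was at 0 throughout. In the list of interferon-stimulated and DNA-sensing genes, 0 of 25 were called by edgeR or DESeq2, with 8 at an unadjusted edgeR p below 0.05 and a list median of 0.19. CXCL10 was counted with the cytokines and is not among these 25, so the counts depend on how genes were assigned to lists. OAS3, an RNA-sensing enzyme and 1 of the best expressed members, had a log2FC of 0.50 ± 0.179 without overlap (edgeR adjusted p = 0.142), and passed the threshold only against untreated cells (log2FC 0.79, edgeR adjusted p = 0.00615).

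AP-1 and immediate early genes, which encode short-lived transcripts that respond within minutes to hours of a stimulus, formed the next group that rose. Of 35 tested members, 14 were upregulated, against 0.629% of all tested genes, and 0 were downregulated, with a median log2FC of 0.82. In the fit without DMSO replicate 3, 17 rose, and 8 rose in that of only the 8 libraries. ATF3, a stress-induced partner of JUN, had 85.8, 111, 75.7 and 89.2 CPM with DMSO and 344, 373, 365 and 349 CPM with Tpc. The 4 Tpc libraries were close to each other and the change was 3.95-fold (log2FC 1.98 ± 0.11, edgeR adjusted p = 2.19e-21). JUN rose from 166, 164, 218 and 212 CPM to 485, 442, 497 and 499 CPM (log2FC 1.34 ± 0.125, edgeR adjusted p = 4.15e-12). IER3, an early response gene linked to cell survival, rose from 51.0, 50.6, 48.2 and 47.4 CPM to 185, 161, 154 and 171 CPM (log2FC 1.77 ± 0.125, edgeR adjusted p = 1.04e-16). Genes on the opposite strand cover a fraction of 0.389 of the exonic length of IER3 and 0.31 of that of PLAU, and their reads may not be separated. The other called members were MAFF, FOSL1, EGR1, JUNB, DUSP8, KLF6, CCN1, FOSL2, KLF10, DUSP1 and IER2, with a log2FC between 0.75 and 1.99.

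Targets of p53 had a small median change as a list. Their summed level was 2920 to 3150 CPM in the DMSO libraries and 3410 to 3460 CPM in the Tpc libraries, so the groups did not overlap. Of 33 tested members 4 were upregulated (GADD45A, AEN, PLK2 and PMAIP1), against 0.629% of all tested genes, 0 were downregulated and the median log2FC was 0.09. GADD45A, a stress gene that other factors than p53 also induce, had the largest change, from 65.9, 46.6, 85.9 and 65.3 CPM to 147, 185, 189 and 172 CPM (log2FC 1.39 ± 0.138, edgeR adjusted p = 4.28e-11). AEN, an exonuclease, had a log2FC of 0.57 ± 0.10 without overlap, and its edgeR adjusted p of 0.000153 became 0.0596 with only the 8 compared libraries. PMAIP1 (NOXA) was also the only called member of 16 BCL2 family genes, with 419 ± 34.6 CPM with DMSO and 596 ± 19.4 CPM with Tpc (SD, n = 4, edgeR adjusted p = 0.000144, and 0.0748 with only the 8 libraries). CDKN1A, the p53 target that encodes the inhibitor p21, was looked at after its values were seen and had a log2FC of 0.09 ± 0.10 (edgeR adjusted p = 0.692).

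Of 26 ATF4 target genes, which respond to amino acid and endoplasmic reticulum stress, 6 rose and 0 fell, with a median log2FC of 0.28. Over all tested genes 0.629% were upregulated. The member of smallest adjusted p was PPP1R15A, which encodes GADD34, a subunit that directs dephosphorylation of eIF2-alpha. It had 142, 120, 190 and 118 CPM with DMSO and 407, 437, 353 and 374 CPM with Tpc (log2FC 1.46 ± 0.119, edgeR adjusted p = 2.59e-14). The others were CHAC1 (log2FC 2.42), CEBPB (1.01), STC2 (0.83), CEBPG (0.72) and MTHFD2 (0.47). Only 1 of the 26 was called with the 8 compared libraries alone. Genes outside these lists also rose, since the lists held 56 of the 182 upregulated DEGs. PTX3, which encodes a soluble pattern recognition protein, had 6.61, 2.32, 8.87 and 6.26 CPM with DMSO and 49.9, 62.6, 57.1 and 50.5 CPM with Tpc (9.16-fold, edgeR adjusted p = 2.87e-16). TCIM rose 6.22-fold, from 13, 14.8, 8.75 and 5.79 CPM to 48.3, 89.9, 61.6 and 68.6 CPM (edgeR adjusted p = 1.41e-14). SPRY4, an inhibitor of receptor tyrosine kinase signaling, INHBA, a subunit of activin, and NEDD9, a scaffold protein of focal adhesions, had a log2FC of 2.18, 2.05 and 2.02, but their adjusted p in the fit of only the 8 libraries was 0.091, 0.111 and 0.192, respectively. The log2FC of SPRY4 was 3.03 without DMSO replicate 1.

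Genes of the G2 phase and mitosis fell. Of 56 tested members, 32 were downregulated, which compares with 0.356% of all tested genes, and 0 were upregulated. Among genes of at least 1 CPM, 0.679% were downregulated. This list was also chosen with earlier results of these data known. The median log2FC was -0.67, and 55 of the 56 were lower with Tpc. Their summed level was 8720 to 11000 CPM in the DMSO libraries and 5950 to 6470 CPM in the Tpc libraries, so the groups did not overlap. Without DMSO replicate 3 there were 35 downregulated members and a median of -0.72, and with only the 8 compared libraries there were 16. The fall included the mitotic kinases PLK1 and AURKA, the cyclins CCNB1, CCNB2, CCNA2 and CCNF, the anaphase-promoting complex genes CDC20 and UBE2C and the kinesins KIF20A, KIF2C and CENPE. KIF20A, which is needed for cytokinesis, had 132, 163, 96.1 and 140 CPM with DMSO and 45.4, 29.9, 45.0 and 40.5 CPM with Tpc. The highest Tpc library was below the lowest DMSO library, and the change was 3.31-fold downward (log2FC -1.73 ± 0.147, edgeR adjusted p = 1.38e-13). PLK1 had 133, 123.2, 94.6 and 124.9 CPM with DMSO and 43.1, 24.9, 39.6 and 41.8 CPM with Tpc (log2FC -1.67 ± 0.172, edgeR adjusted p = 1.38e-10). CCNB1, the cyclin that drives entry into mitosis with CDK1, had 336, 322, 301 and 279 CPM with DMSO and 124.5 to 145 CPM with Tpc (log2FC -1.23 ± 0.123, edgeR adjusted p = 4.91e-11). CDC20, the activator of the anaphase-promoting complex, had 171, 160, 177 and 130 CPM with DMSO and 70.7, 57.2, 59.7 and 55.1 CPM with Tpc (log2FC -1.39 ± 0.139, edgeR adjusted p = 5.06e-11). The centromeric histone gene CENPA, the hyaluronan receptor gene HMMR, the spindle gene PSRC1 and AURKA had a log2FC of -1.58, -1.42, -1.63 and -1.33, with no overlap between groups in any of them. PIF1, a helicase gene of the list, had the lowest log2FC of the named genes at -2.32 ± 0.534, from 12.1, 8.97, 18.6 and 10.5 CPM to 3.85, 2.58, 1.86 and 1.55 CPM (edgeR adjusted p = 0.00634). This call was lost in 5 of the 8 fits that left out 1 library, DMSO replicate 1 or 3 or Tpc replicate 2, 3 or 4, with an adjusted p of 0.0137 to 0.0423. TOP2A, the topoisomerase of mitotic chromosomes, fell from 1110, 1400, 1080 and 1410 CPM to 649, 564, 727 and 727 CPM (log2FC -0.91 ± 0.11, edgeR adjusted p = 3.07e-08). It was the only DEG among 26 topoisomerase and trapped-TOP1 repair genes, whose median log2FC was -0.04. In bulk RNA, a smaller share of cells in G2 and mitosis and less RNA per such cell cannot be told apart.

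Genes of the G1/S transition and DNA replication moved the other way by less. Of 53 tested members, 5 were upregulated, 0 were downregulated, 49 had a positive log2FC and the median was 0.30. Over all tested genes 0.629% were upregulated and the median log2FC was 0.0. Their summed level was 7400 to 7760 CPM with DMSO and 8870 to 9190 CPM with Tpc. ORC1, the largest subunit of the origin recognition complex, had 38.0, 38.7, 26 and 43.5 CPM with DMSO and 67.9, 46.6, 67.1 and 66.0 CPM with Tpc (log2FC 0.76 ± 0.145, edgeR adjusted p = 0.000544). CDC6, which loads the replicative helicase, and POLD3, a subunit of DNA polymerase delta, had a log2FC of 0.53 and 0.66, and CDC25A and MCM4 had 0.58 and 0.47. In the fit of only the 8 libraries ORC1, CDC6 and POLD3 had an adjusted p of 0.121, 0.125 and 0.0264, and 0 members of the list were called. Without DMSO replicate 4 there were 9. Of 47 homologous recombination, Fanconi and checkpoint genes, EXO1, an exonuclease that resects DNA ends, was the only DEG, with 83.4, 108, 69.5 and 90.6 CPM with DMSO and 147, 160, 149 and 137 CPM with Tpc (edgeR adjusted p = 2.07e-05, and 0.028 with only the 8 libraries). Of 46 replication-dependent histone genes, whose transcripts largely lack a poly(A) tail and are poorly captured by poly(A) selection, 0 were called by edgeR or DESeq2 and 5 had an unadjusted edgeR p below 0.05.

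Several other lists held at most 2 DEGs each. Over all tested genes 0.629% were upregulated and 0.356% were downregulated. All 76 tested ribosomal protein genes, all 33 proteasome genes and all 13 mitochondrially encoded mRNAs did not pass the test by edgeR or DESeq2, with 38, 5 and 8 members at an unadjusted edgeR p below 0.05. Their median log2FC of -0.26, -0.19 and -0.34 moved to -0.05, -0.06 and -0.22 without DMSO replicate 3, the library with the high ribosomal protein share. Against untreated WT cells, a comparison that does not use this library, the medians were -0.34, -0.25 and -0.20. The lower medians were thus not seen only against the DMSO group. RPS2 had 3270, 2790, 4850 and 2640 CPM with DMSO and 3030, 3180, 2710 and 2650 CPM with Tpc, and DMSO replicate 3 was the highest of these libraries. Its mean in untreated WT cells was 3580 CPM, with a log2FC of -0.31 for Tpc against them (edgeR adjusted p = 0.159). NDUFB4 was the only DEG of 78 nuclear oxidative phosphorylation genes, with overlapping groups and an adjusted p of 0.00111 that became 0.0347 without DMSO replicate 3 and 0.0141 without Tpc replicate 3. Of 17 heat shock genes, HSPA1B and DNAJB1 fell, with a log2FC of -0.88 ± 0.148 and -0.52 ± 0.103 (edgeR adjusted p = 5.06e-05 and 0.00095). HSPA1B shares most of its sequence with its neighbour HSPA1A, so its counts are uncertain, and DNAJB1 had an adjusted p of 0.016 without DMSO replicate 3. Against untreated cells the log2FC of DNAJB1 was -0.20 (edgeR adjusted p = 0.334). RRN3, a factor of RNA polymerase I, was the only called member of 32 nucleolar ribosome biogenesis genes (log2FC 0.54 ± 0.105, edgeR adjusted p = 0.000711, and 0.0124 without DMSO replicate 3). The HEK293-type markers NEFM and HEY1 were downregulated, and all 10 markers had a negative log2FC. NEFM had 20.8, 18.0, 49.6 and 7.83 CPM with DMSO and 7.55, 3.38, 4.64 and 7.74 CPM with Tpc, and its edgeR adjusted p of 0.00139 became 0.0533 without DMSO replicate 3 (log2FC -2.05 with and -1.43 without it), 0.0149 without Tpc replicate 2 and 0.0118 without Tpc replicate 3. The call of HEY1 (edgeR adjusted p = 0.00831) was lost without DMSO replicate 1 or 3 or any 1 of the Tpc libraries.

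The response also differed with the length of the gene from its start to its end, which is the distance that RNA polymerase travels over a template where TOP1 may be trapped. Genes of at least 1 CPM, 15024 in all, were sorted into 6 bins of span. The median log2FC was -0.04, 0.03, 0.05 and -0.00 for spans under 10 kb, 10 to 50 kb, 50 to 100 kb and 100 to 200 kb. It was -0.18 for 944 genes of 200 to 500 kb and -0.47 for 201 genes of at least 500 kb, with 69.3% and 77.6% of the genes below 0. These values were -0.27 and -0.57 without DMSO replicate 3. In the longest bin 7 genes were downregulated and 1 was upregulated, or 3.48% and 0.498% of the bin, against 0.679% and 1.18% of all genes in the bins. In all, 26 downregulated DEGs in the bins spanned at least 200 kb, and none of these 26 was in the G2/M list, while 2 upregulated DEGs were that long. Library by library, the median of the longest genes relative to the mean of the DMSO libraries, on the log2(CPM + 1) scale, was -0.351, -0.463, -0.277 and -0.324 in Tpc replicates 1 to 4 and -0.045, 0.24, -0.365 and 0.233 in DMSO replicates 1 to 4. The Tpc libraries were thus below DMSO replicates 1, 2 and 4, but DMSO replicate 3 lay among them. Within library-name prefixes the difference for these genes was -0.29, -0.63 and -0.34.

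Among downregulated DEGs that averaged 50 counts or more, the 4 of longest span were PRKG1, PTPRG, BCAS3 and PARD3. PRKG1, a cGMP-dependent protein kinase, spans 1310 kb of chromosome 10 (hg38, from 50990888 to 52298423, + strand). It had 10.8, 25.3, 20.5 and 12.7 CPM with DMSO and 5.39, 3.20, 3.87 and 5.03 CPM with Tpc, without overlap (log2FC -1.98 ± 0.301, edgeR adjusted p = 7.54e-06, and 0.0112 with only the 8 libraries). PARD3, a cell polarity scaffold that spans 706 kb of chromosome 10, had 138, 174, 124.6 and 150 CPM with DMSO and 79.8, 64.0, 84.0 and 83.0 CPM with Tpc (log2FC -0.92 ± 0.141, edgeR adjusted p = 1.07e-05). AGAP1, a GTPase-activating protein of 638 kb on chromosome 2, had 39.7, 59.4, 46.5 and 56.4 CPM with DMSO and 21.1, 14, 20.9 and 25.1 CPM with Tpc (log2FC -1.32 ± 0.243, edgeR adjusted p = 0.000302). PTPRG, a receptor phosphatase of 736 kb, overlapped through DMSO replicate 3 alone, which had 17.5 CPM against 35, 50.2 and 45.7 CPM in the other DMSO libraries and 12.2 to 21.5 CPM with Tpc. Its log2FC was -1.02 with and -1.25 without that library (edgeR adjusted p = 0.00559 and 9.6e-05). The call was lost without DMSO replicate 1, 2 or 4 or Tpc replicate 2 or 3, with an adjusted p of up to 0.0544. BCAS3, of 715 kb, had a log2FC of -0.86 ± 0.193 (edgeR adjusted p = 0.00494, and 0.121 with only the 8 libraries), and its call was lost without DMSO replicate 2 or 4 or Tpc replicate 2, 3 or 4. Long genes were not all lower. CREB5, a CREB family factor that spans 527 kb of chromosome 7, rose from 22.6, 41.6, 19.7 and 32.4 CPM to 60.1, 67.4, 69.5 and 79.0 CPM (log2FC 1.25 ± 0.165, edgeR adjusted p = 2.46e-07, and 0.0106 with only the 8 libraries). PHLDB2 (244 kb), NEDD9 (199 kb) and PARP8 (181 kb) were the next longest upregulated DEGs, with a log2FC of 1.12, 2.02 and 0.75. The edgeR adjusted p of PARP8 was 0.00345, and it lay between 0.0119 and 0.0238 without DMSO replicate 1, 2 or 3 or Tpc replicate 1, 3 or 4.

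The DMSO group was also set beside untreated WT cells, as another comparator for the same 4 Tpc libraries. Against untreated cells, Tpc gave 160 upregulated and 88 downregulated DEGs. CXCL8 had 11.3 ± 3.98 CPM in untreated cells, 15.2 ± 5.73 CPM with DMSO and 354 ± 61.9 CPM with Tpc, and KIF20A had 120 ± 13.4, 133 ± 27.6 and 40.2 ± 7.21 CPM (SD, n = 4 each). For CXCL8 and KIF20A the Tpc group stood apart from both control groups. Of the 53 named DEGs, 40 were also called against untreated cells and 13 were not. The calls of SPRY4, INHBA, NEDD9, PHLDB2, STC2 and PARP8 among upregulated genes and of DNAJB1, NDUFB4, BCAS3, ARHGEF39, PRKG1, NEFM and PIF1 among downregulated genes were lost, with an adjusted p between 0.0107 for PIF1 and 0.388 for NDUFB4. The log2FC of SPRY4, INHBA and NEDD9 was 1.35, 1.21 and 1.32 against untreated cells, and that of PRKG1 and NEFM was -1.23 and -1.46. CXCL1, TCIM and CD69 kept their calls with a log2FC of 3.99, 2.03 and 5.25.

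In PARP1-KO cells the dose was 50 nM, so the genotype and the dose cannot be told apart in what follows. Tpc gave 0 DEGs in PARP1-KO cells by edgeR and by DESeq2, with 1101 genes at an unadjusted p below 0.05 against 4672 in WT cells. The difference of the Tpc response between the genotypes, tested directly in the same fit, was called for 50 genes (0.173%), 41 with a higher response in WT cells (0.142%) and 9 with a lower one (0.0311%). All 50 were DEGs of WT cells with the same sign. They included 12 of the 66 NF-kappa B list members, 7 of 35 AP-1 and immediate early genes and 8 of 56 G2/M genes. CXCL8 had 35.7 ± 7.25 CPM with DMSO and 38.3 ± 4.82 CPM with Tpc in PARP1-KO cells (SD, n = 4), so that its log2FC of 0.10 differed from that of WT cells by 4.42 (edgeR adjusted p = 3.79e-20). TNFAIP3 had 54.2 ± 7.39 and 52.8 ± 2.63 CPM in PARP1-KO cells, above the 11.2 ± 4.88 CPM of WT cells with DMSO and below their 158 ± 22.1 CPM with Tpc. ATF3 was at 339 ± 16.1 CPM in PARP1-KO cells with DMSO already, close to the 358 ± 13.5 CPM of WT cells with Tpc, and was at 334 ± 14.1 CPM there with Tpc. Among G2/M genes, CCNB1 had 135 ± 20.8 and 117.1 ± 9.04 CPM with DMSO and Tpc in PARP1-KO cells, against 309 ± 24.6 and 132 ± 9.13 CPM in WT cells (difference of the log2FC -1.03, edgeR adjusted p = 0.000181). Of the downregulated DEGs of WT cells, 84.5% had a negative log2FC in PARP1-KO cells, with a median of -0.18. Of the upregulated DEGs 69.8% had a positive one, with a median of 0.07. The median spans of these groups were 31.7 and 16.8 kb, respectively. Among all genes of 10 to 50 kb, 40.1% had a negative log2FC in PARP1-KO cells and the median was 0.04. The median of the upregulated DEGs was thus close to that of these genes. Of the downregulated DEGs in the span bins, 26 spanned at least 200 kb. Among all genes of 200 to 500 kb, and also of at least 500 kb, 81.6% had a negative log2FC in PARP1-KO cells. Genes of 10 to 50 kb alone are therefore not a like reference for the downregulated DEGs.

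The median log2FC of long genes was below 0 in both genotypes. In PARP1-KO cells the median log2FC was -0.21 for genes of 200 to 500 kb and -0.35 for genes of at least 500 kb, with 81.6% of the genes below 0 in each bin, beside -0.18 and -0.47 in WT cells. For genes of at least 500 kb, the PARP1-KO Tpc libraries lay between -0.359 and -0.188 relative to the mean of their DMSO libraries. The spread between those DMSO libraries is not given here, and in WT cells DMSO replicate 3 alone lay at -0.365. Whether the shift in PARP1-KO cells exceeds that spread was not tested. PARD3 had a log2FC of -0.61 in PARP1-KO cells, AGAP1 of -0.85 and PRKG1 of -0.94, none of which passed the test there (edgeR adjusted p = 0.372, 0.957 and 1.0). Their differences between the genotypes of -0.31, -0.47 and -1.04 did not pass either (edgeR adjusted p = 0.7, 0.747 and 0.448), and a difference that misses the threshold does not show that the genotypes respond alike. In the combination of Tpc with OL9-119, WT cells had 357 ± 69.7 CPM of CXCL8 and 36.0 ± 7.17 CPM of KIF20A, beside 354 ± 61.9 and 40.2 ± 7.21 CPM with Tpc alone (SD, n = 4).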

How the data were processed

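RNA of the 40 samples was read as poly(A) libraries. Per the study's methods and the submitters' processing notes, the authors checked reads with FastQC 0.11.9 and Picard 2.26.6 and aligned them to hg38 with STAR 2.7.8, and they deposited raw gene counts for 58395 gene IDs. Which strand column was taken is not given in the sources used here, so reads of overlapping antisense genes may not be separated. The deposited counts were tested as they stand.

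Genes with at least 10 summed counts (28922) were fitted with edgeR 4.0.16 (TMM, quasi-likelihood F-test, R 4.3.3) over all 40 libraries with 1 coefficient per condition, so the conditions share the estimate of spread. The SE is the absolute log2FC divided by the square root of F. Summaries used Python 3.11.15, pandas 2.3.3 and numpy 2.4.6. Symbols and positions came from GENCODE 44, which matched 57754 IDs. Span bins used genes of at least 1 CPM, and library medians used log2(CPM + 1). Sample groups came from the labels. Genes named were the 12 DEGs with the highest and 12 with the lowest log2FC among those that averaged 50 counts or more and whose groups did not overlap, the 3 members of smallest adjusted p per list and direction, the 2 best expressed members of a list without DEGs, the 4 longest DEGs per direction, and PARP1, TOP1 and TDP1. Results that need withheld items are not reported here. Other genes were chosen after their values were seen. The comparison and the 23 gene lists were chosen with earlier results of these data known. Alternatives were DESeq2 1.42.0, other scalings and filters, other sets of libraries, the replicate number or name prefix as a term, a gene length offset and each library left out. On counts simulated for 28060 genes, the edgeR steps called 97 of 100 genes changed 4-fold, 73 of 100 changed 2-fold and 3 unchanged genes. These changes were placed outside low-count genes and genes of at least 500 kb. No simulated library was made to stand apart as DMSO replicate 3 did, so these counts do not give the error rates of the real data.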

Additional observations from a re-analysis of the deposited data

Results flagged for a closer look

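In 140 groups of 4 libraries, 1 for each named gene in each group, 15 held a library farther from the rest than Dixon's 95% limit of 0.829, where chance flags about 1 in 20. In Tpc replicate 2 these were CXCL1 at 21.8 CPM, SDC4 at 391.3 CPM and PSMA4 at 566.3 CPM, above the other Tpc libraries, and ORC1 at 46.6 CPM and PARP1 at 761.5 CPM, below them. In DMSO replicate 3, CD69 at 4.19 CPM and H1-2 at 22.2 CPM were apart on the high side and PARP1 at 737.3 CPM on the low side. The other libraries that stood apart were Tpc replicate 1 for RELB (54.4 CPM), Tpc replicate 4 for INHBA (14.2 CPM) and LUM (0.774 CPM), DMSO replicate 1 for HLA-DRA (0.924 CPM) and POLD3 (105.1 CPM), DMSO replicate 2 for CEBPG (126.5 CPM) and DMSO replicate 4 for PARP8 (31.6 CPM).

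The Tpc response of 24 named genes differed between WT and PARP1-KO cells by the edgeR test of the difference itself, at adjusted p below 0.01, with the dose differing too. The log2FC in WT cells minus that in PARP1-KO cells was 4.52 for CXCL1, 4.42 for CXCL8, 4.4 for CCL20, 3.86 for TNFAIP3, 2.47 for TNFRSF9, 2.29 for RELB, 2.01 for NFKBIA, 1.84 for PLAU and 1.31 for SDC4 among NF-kappa B genes. It was 2.00 for ATF3, 1.86 for IER3 and 1.37 for JUN among AP-1 and immediate early genes, and 1.42 for PPP1R15A and 0.66 for CEBPG among ATF4 targets. GADD45A had 1.26, PTX3 3.19, TCIM 2.71, and the long genes CREB5 and PHLDB2 had 1.49 and 1.28. Among G2/M genes it was -0.76 for TOP2A, -1.03 for CCNB1, -1.10 for CDC20, -1.37 for HMMR and -1.39 for KIF20A.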

How the results depend on the processing

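Of the 285 DEGs, 182 were upregulated. DESeq2 called 302 up and 215 down, which is 1.81 times the DEGs (1.66 times those up and 2.09 times those down). The 20 WT libraries gave 73 up and 48 down (0.425 times, 0.401 and 0.466), the 8 compared libraries 34 and 22 (0.196, 0.187 and 0.214), an adjusted p below 0.05 gave 362 and 209 (2.0, 1.99 and 2.03) and an absolute log2FC of at least 1 gave 78 and 31 (0.382, 0.429 and 0.301). Chosen after seeing the data, the fits without DMSO replicate 3 gave 91 and 68 for the 8 libraries (0.558, 0.5 and 0.66) and 66 and 48 for the 20 WT libraries (0.4, 0.363 and 0.466). Without a low-count filter 251 were up and 169 down (1.64 times those down), and the 16 Tpc and DMSO libraries gave 197 DEGs with 80 down (0.643 times those up). Scaling by total counts gave 234 up and 82 down. Leaving out 1 library gave 204 to 423 DEGs (0.716 to 1.48 times, 0.747 to 1.54 up and 0.66 to 1.39 down), the fewest without Tpc replicate 3 (136 up and 68 down) and the most without DMSO replicate 4 (280 and 143), and 153 of the 285 were called in each of these fits. The 50 differences between genotypes became 88 with DESeq2, 79 without the filter and 29 with the 16 libraries, and 34 to 55 with 1 library left out. Same-numbered libraries did not pair (correlations of deviations 0.08, -0.054, -0.133 and 0.192). The replicate block gave 339 DEGs (228 and 111) and 58 differences, and 2 DMSO and 2 Tpc libraries correlated best with their own number. The median of genes of 10 to 50 kb, 0.03, was 0.01 with DESeq2 and with RLE scaling, 0.09 with total counts, -0.01 with the length offset and 0.03 to 0.06 with 1 library left out. For genes of at least 500 kb the median stayed between -0.57 and -0.42.

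No called named gene changed direction under any alternative run. Some genes that were not called did: PARP1 (0.01 with total counts), PECAM1 (0.23 with the replicate block, -0.56 to 1.37 with 1 library left out), VWF (0.02 against untreated cells, -0.55 to 0.16 with 1 left out), H2BC12 (0.26 against untreated cells, -0.45 to 0.03 with 1 left out), PSMC3 (-0.3 to 0.01) and COL1A1 (to 0.05 without DMSO replicate 3). The causes were not tested. Of 53 called named genes, 44 were called with each library left out and 26 lost the call with only the 8 compared libraries. Total counts of 6300822 to 14292607 limit the precision of genes near 1 CPM.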

Other observations

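Genes with a ZNF symbol, which encode zinc finger proteins, were looked at after their values were seen. Of 467 tested ZNF genes, 16 were upregulated by edgeR (3.43%, against 0.629% of all tested genes), 0 were downregulated, 374 had a positive log2FC and the median was 0.32. Without DMSO replicate 3 the median was 0.26 and 6 were upregulated. The median was 0.39 against untreated WT cells, 0.38 with total-count scaling, 0.30 with RLE scaling or DESeq2 and 0.28 with the length offset. In PARP1-KO cells the median was 0.14, and the difference between the genotypes passed the test for 1 of these genes.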
